A study of Homo sapiens and Mus musculus with 33 samples.

Results

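On 59 mouse 3' untranslated regions, 70.1% to 84.5% of the reads from T cells labelled with 500 µM 4-thiouridine (4sU) counted as converted from T to C, the mark of newly made RNA, in the authors' tables. These regions were chosen by that value: each region lay outside the mitochondrial chromosome, had at least 100 reads in each 500 µM library, and had a converted share of at least 70% in both. Annotated 3' UTR rows that overlapped on 1 strand were taken as 1 group, represented by the row with the most reads, which gave 122084 groups from 223314 rows. The 59 members make up 1.12% of the 5283 groups that reached the read minimum, and the other 5224 serve below as the reference. A name implying complete renewal would go beyond these data, because 0 of the 59 members exceeded 90% in any labelled library.

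The cells were T lymphocytes from mouse lymph nodes, which the series text calls naive. The 8 bulk libraries comprised 2 controls and 2 each at 250 µM, 500 µM and 1 mM 4sU. No strain, labelling time or stimulation of the bulk samples is given. Even the control libraries are titled as 4sU labelling, but their conversion level (below) was near 0. All 8 libraries went through iodoacetamide treatment in the stated protocol and a kit that reads mRNA 3' ends. The labels do not say whether replicates came from separate animals, so the spread behind each p-value may be technical.

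4sU is a uridine analogue that cells build into RNA while it is made. In SLAM-seq, iodoacetamide alkylates the incorporated 4sU, and the modified base is then copied so that the read shows C where the gene has T. A transcript whose old copies are replaced quickly therefore gathers converted reads soon after labelling starts, and short-lived mRNAs such as those of signalling and transcription regulators are known for this in lymphocytes. The share of converted reads depends on the turnover of the transcript, on how often 4sU replaces uridine, and on how many T positions a read covers.

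Region reads ranged from 3689723 to 6548693 per library, which was 31.7% to 43.7% of the mapped reads. The members held 40691 to 127769 reads per library, or 1.13% to 2.36% of reads outside the mitochondrial chromosome. They held 3.97% to 5.16% of the converted reads in the labelled libraries. In single-cell libraries of naive T cells from the same series, all 14 T cell markers were detected, with a summed level of 4873 CPM (UMIs scaled to the library total) at 0 h. Markers of B cells there summed to 79.3, of myeloid cells to 88.9, of NK cells to 16.4 and of stromal and endothelial cells to 86.2 CPM. The bulk tables carry transcript identifiers that the sources used here did not pair with mouse gene names, so the same check was not made in the bulk libraries and members are named by position. Positions are as in the deposited tables, whose annotation is GENCODE mouse release 33; the submitters' notes list mm10, and whether the reads were mapped to that build or a later one is not given.

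The members lay on 19 chromosomes, 28 of 59 on the plus strand, and chromosomes 11 and 12 held 6 each. No 2 members shared a transcript identifier, and the closest pair on a chromosome was 1460937 bp apart. Only 2 of the 59 overlapped an annotated 3' UTR on the other strand. The median member was 988 bp long, against 1088 bp for the other regions. Reads were concentrated in a few members. The deepest region, chr1:164759213-164759353 on the minus strand, is 141 bp long and held 24.6% to 43.7% of all member reads in a library. Together with chr2:56996842-56998424, chr15:101172134-101172676 and chr11:83555208-83555509 it made up 51.1% to 62.8%, so sums over members mostly describe these 4, and medians over members are used below.

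Conversions were almost absent from the controls. In control library 1, 1 of 127769 member reads was converted, a share of 0.000783% (95% Clopper-Pearson interval 1.98e-05% to 0.00436%). Control library 2 gave 1 converted read of 40691, or 0.00246% (6.22e-05% to 0.0137%). These reads fell on 2 of the 59 members. The reads carry no molecular identifiers, so all intervals here cover counting error only.

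With 4sU, the members' converted share was much higher at every dose. The median over members was 63.1% and 64.0% in the 250 µM libraries, and 72.9% and 74.0% in the 500 µM libraries that chose them. At 1 mM it was 70.4% in library 1 and 78.6% in library 2. Averaged over the libraries of a dose, the median was 63.5% ± 0.69 at 250 µM, 73.5% ± 0.77 at 500 µM and 74.5% ± 5.8 at 1 mM (n = 2 libraries each, ± SD). The other regions stood at 34.7% ± 1.6, 43.7% ± 1.3 and 47.0% ± 3.7. Thus the step from 500 µM to 1 mM in the members was smaller than the distance between the 1 mM libraries, and because the 500 µM values were selected to be high, this step is a description only.

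**Figure D1:**
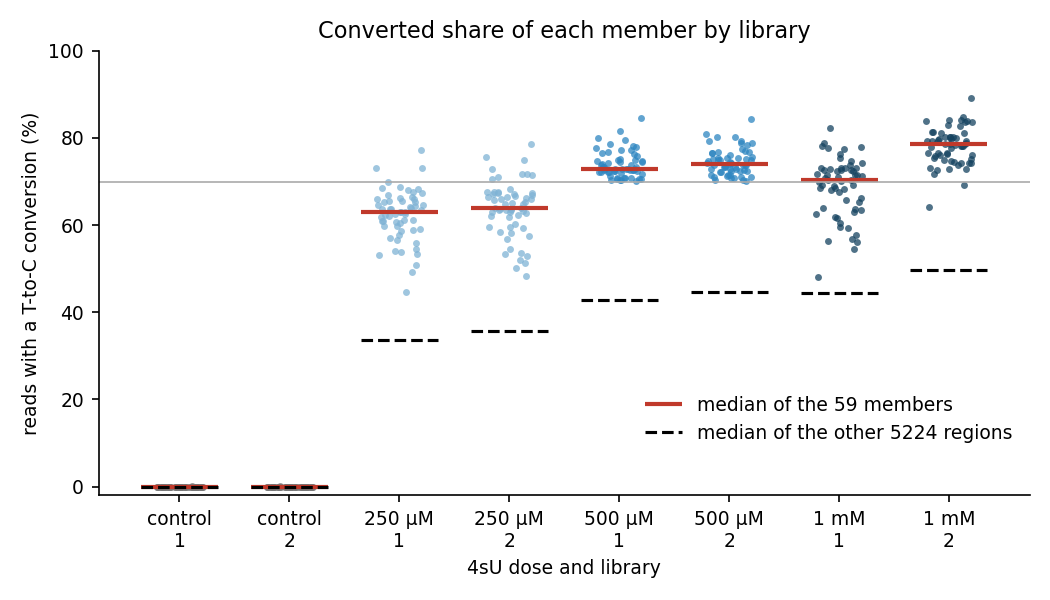
Converted share (y axis, percent of reads) for each of the 59 members (points) in each of the 8 libraries (x axis). Red bars mark the member medians, dashed bars the medians of the other 5224 regions, and the grey line the 70% threshold. The controls lie at 0, the members centre on 63.1% and 64.0% at 250 µM, and the 1 mM libraries differ, at 70.4% and 78.6%.

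How much of the 500 µM share came from selection can be read in the library that did not choose. Of the 5283 regions, 99 reached 70% in 500 µM library 1. Their median share was 72.9% there and 71.4% in library 2, where 59 of the 99 also reached 70%. Conversely, 139 regions reached 70% in library 2, with a median of 73.0% there and 68.9% in library 1. In both cases the library that did not choose gave the lower median, while over the other 5224 regions library 2 had the higher median, 44.6% against 42.9%.

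The threshold cuts through a continuous distribution. Just inside were chr6:120869815-120871241, with 70.1% and 70.2% in the 500 µM libraries, chr12:17479236-17480096, with 70.3% and 70.7%, and chr12:32900533-32903348, with 70.3% and 71.4%. Just outside were chr1:154972107-154974249, with 69.99% and 70.7%, chr14:62923253-62931029, with 69.9% and 72.3%, and chr11:77419988-77428692, with 69.9% and 71.0%. Precision at this edge is limited by reads. The shallowest member had 102 reads in 500 µM library 2, 80 of them converted, a share of 78.4% with a 95% Clopper-Pearson interval of 69.2% to 86.0%. For the deepest member that interval in the same library ran from 75.6% to 76.5%.

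The 1 mM libraries stood apart from each other in the number of T positions a read covered. A member read covered a median of 28.3 T positions in 1 mM library 1 and 34.2 in library 2, while the other 6 libraries lay between 34.1 and 34.6. The count was lower in 1 mM library 1 than in every other library for 56 of 59 members (94.9%), against 82.9% of the other regions. Over those regions the median was 23.0 in 1 mM library 2 and 20.1 in library 1. This library had the highest share of mitochondrial reads as well, 7.53% of region reads against 2.62% to 4.94% in the rest.

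The converted share, which counts reads and not positions, differed between these libraries in the same direction. It was lower in library 1 than in library 2 for 55 of 59 members (93.2%), against 76.0% of the other regions. The conversion rate, which is the percentage of covered T positions read as C and is counted per position, did not separate the libraries. Its median over members was 9.01% in library 1 and 9.17% in library 2. The rate was lower in library 1 for 30 of 59 members (50.8%), against 49.4% of the other regions. Whether the shorter T coverage lowered the share in library 1 was not tested.

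**Figure D2:**
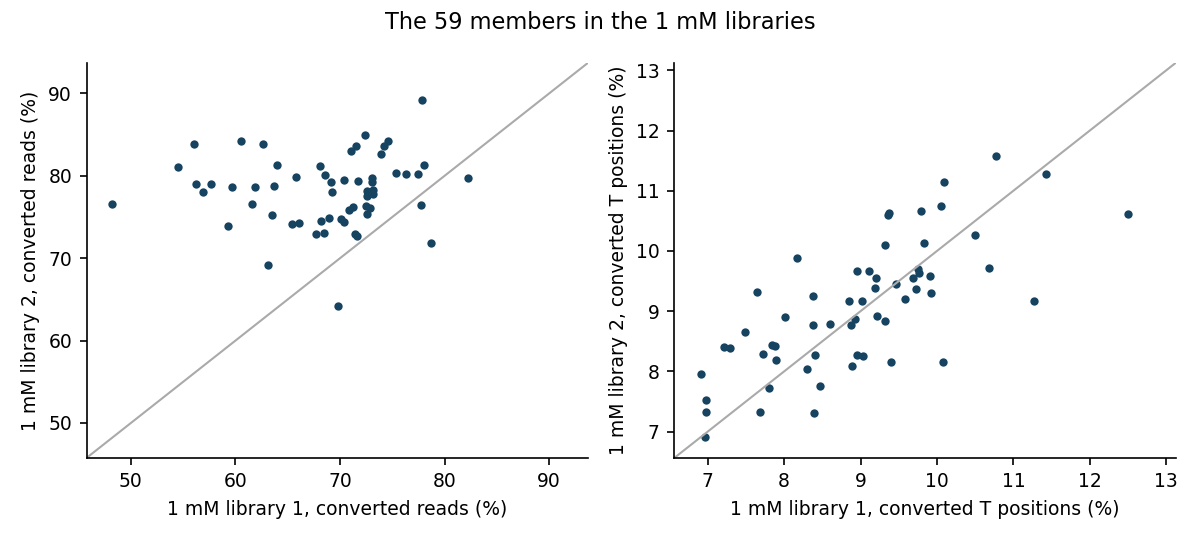
Each point is 1 of the 59 members, with 1 mM library 1 on the x axis and 1 mM library 2 on the y axis, for the share of converted reads (left, percent) and the share of converted T positions (right, percent). The grey line marks equality. On the left 55 members lie above the line, and on the right the members fall on both sides of it, with 30 above.

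On the conversion rate, the members showed a higher median at each higher dose. It was 6.08% and 6.20% at 250 µM, 7.95% and 8.01% at 500 µM, and 9.01% and 9.17% at 1 mM. By dose these are 6.14% ± 0.08, 7.98% ± 0.04 and 9.09% ± 0.11 (SD of library medians, n = 2), so neighbouring doses were separated by far more than the spread between libraries, although the 500 µM rates come from the libraries that chose the members. The other regions ran in parallel at 4.13% ± 0.19, 5.55% ± 0.16 and 6.72% ± 0.04. The median ratio of 500 µM to 250 µM was 1.29 in the members and 1.34 in the others, and that of 1 mM to 500 µM was 1.14 and 1.21. Each doubling of the dose thus went with much less than a doubling of the rate, in members and others alike.

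**Figure D3:**
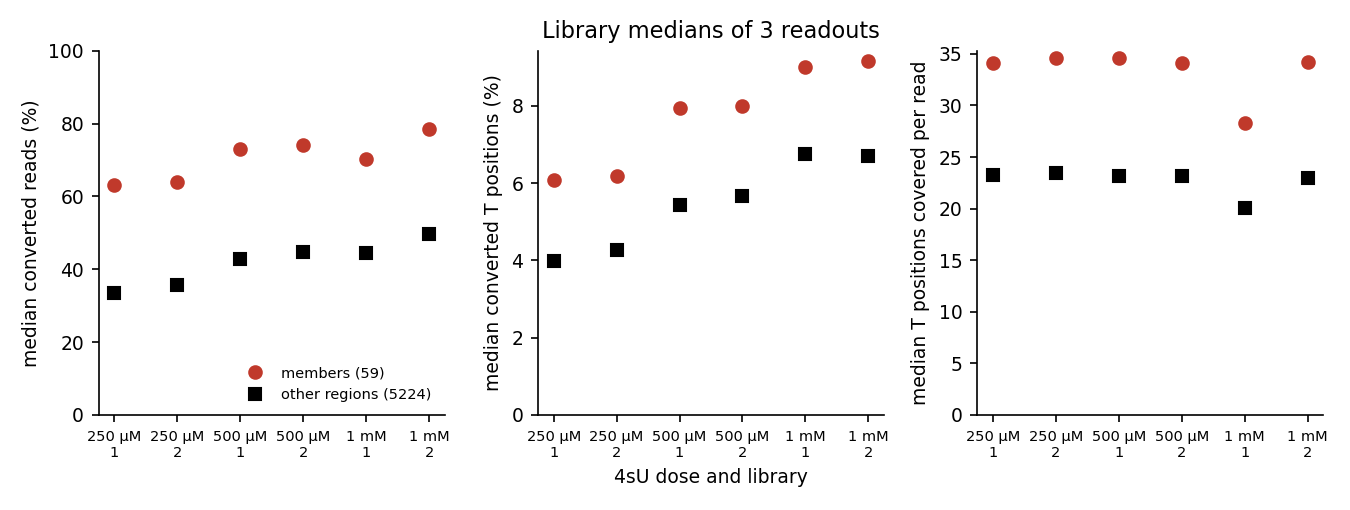
Medians over the 59 members (red circles) and the other 5224 regions (black squares) in each labelled library (x axis), for the share of converted reads (left, percent), the share of converted T positions (middle, percent) and the T positions covered per read (right, count). Only 1 mM library 1 is low in T positions per read, at 28.3 for members, and the member rates in the middle panel are 9.01% and 9.17% in the 1 mM libraries.

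The comparison of 1 mM with 250 µM contrasts no library that chose the members, and the 500 µM libraries entered the fit only for the spread (22 members were called without them). Converted and unconverted reads were compared in 1 model over the labelled libraries (edgeR's quasi-likelihood test, Benjamini-Hochberg adjustment over 18375 regions). The share was higher at 1 mM in 27 of 59 members at an adjusted p under 0.05 and lower in 0. At an unadjusted p under 0.05 it was higher in 38 (64.4%, against 26.9% of all regions tested) and lower in 0. Among all regions tested 13.0% were called higher, but most have far fewer reads, and among the 5283 regions with the same read minimum 35.7% were called. The median log2 difference in odds was 0.73 in the members and 0.76 over all regions tested.

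That count rests on few libraries. It was 40 without 1 mM library 1, which stands apart in T coverage, with a median of 1.15. Leaving out 1 mM library 2 gave 11 higher and 2 lower, with a median of 0.42. It fell to 4 without 250 µM library 1 and to 13 without 250 µM library 2, where the lone library was assumed to vary like those of the other doses. Over all regions tested the median moved the same way, to 0.90 without 1 mM library 1 and 0.62 without 1 mM library 2. In each of these settings the number called higher over all regions also moved in the same direction as in the members. Read without a model, both 1 mM libraries exceeded both 250 µM libraries in 42 of 59 members, against 77.3% of the 5283 regions. The other 17 members had overlapping values. Library 2 at 1 mM alone, a reading added after the data were seen, exceeded both 250 µM libraries in 59 of 59, against 93.3% of the other regions.

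For the conversion rate the separation was wider. Both 1 mM libraries exceeded both 250 µM libraries in 59 of 59 members, against 94.6% of the 5283 regions. The model called 51 of 59 members higher at 1 mM and 0 lower (edgeR, adjusted p under 0.05), while 31.6% of the 18375 regions tested and 79.0% of the 5283 were called higher. The median log2 difference was 0.59 in the members and 0.77 over all regions tested. Leaving out any library kept the count between 38 and 50.

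Whether labelled shares approached a ceiling was examined through the reads that stayed unconverted. At least 70% of reads were converted in both 250 µM libraries for 3 of 59 members, in 1 mM library 1 for 31 and in 1 mM library 2 for 57. Of the other regions, 0%, 1.09% and 4.96% did so. The count at 80% or more in 1 mM library 2 was 18 (30.5%, against 0.115% of the other regions), and the highest single value was 89.2%. Since the members were chosen for reaching 70% at 500 µM, these counts are a description only. Conversions divided by converted reads gave 3.34 ± 0.02 in the members at 250 µM, then 3.68 ± 0.01 at 500 µM, then 3.82 ± 0.16 at 1 mM (each the mean of 2 library medians ± SD). In the other regions the values were 2.74 ± 0.01, 2.91 ± 0.01 and 3.05 ± 0.04. Among those regions the ratio went as low as 0, so it is not an exact number of conversions per converted read. If conversions on labelled reads followed a Poisson distribution and a single conversion made a read count, 4.08% of labelled member reads at 250 µM, 2.80% at 500 µM and 2.41% at 1 mM would carry none by chance. Dividing the observed shares by the remainder gives 66.6% ± 0.87, 76.0% ± 0.49 and 76.4% ± 5.3, an estimate under that assumption only. At 1 mM it was 72.6% in library 1 and 80.1% in library 2. Among the other regions the same estimate reached 228637% in 250 µM library 1, so it breaks down where the ratio is low.

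Had the conversions been spread evenly over all reads of a member, 88.1% of reads at 250 µM, 93.3% at 500 µM and 93.9% at 1 mM would have carried at least 1. The observed medians of 63.5%, 73.5% and 74.5% lay well under these values. The other regions also fell short, with observed medians of 34.7%, 43.7% and 47.0% against 60.9%, 71.5% and 75.7%. The conversion rate lay above both 500 µM libraries for 48 of 59 members (81.4%) in each 1 mM library, against 79.3% of the other regions in library 1 and 80.6% in library 2. The converted share lay above both 500 µM libraries for 10 members in 1 mM library 1 and for 45 in library 2. For the other regions the converted share did so in 38.8% and 70.9%. Because the 500 µM shares were selected to be high, no test is given for this step.

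The members were rich in T. Over all libraries pooled, a read on a member covered a median of 33.9 T positions, and 22.7 on the other regions. All 59 members covered at least 25 T positions per read, which held for 35.9% of the others, and 54 covered at least 30, against 9.07%. The full regions differed less, with a median T content of 33.2% in the members and 28.6% in the others. Across the 5283 regions, Spearman's rho between T positions per read and the 500 µM share was 0.80, a description over regions that share libraries and base composition. For the 500 µM conversion rate rho was 0.52, so across regions the rate was not independent of T coverage either.

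**Figure D4:**
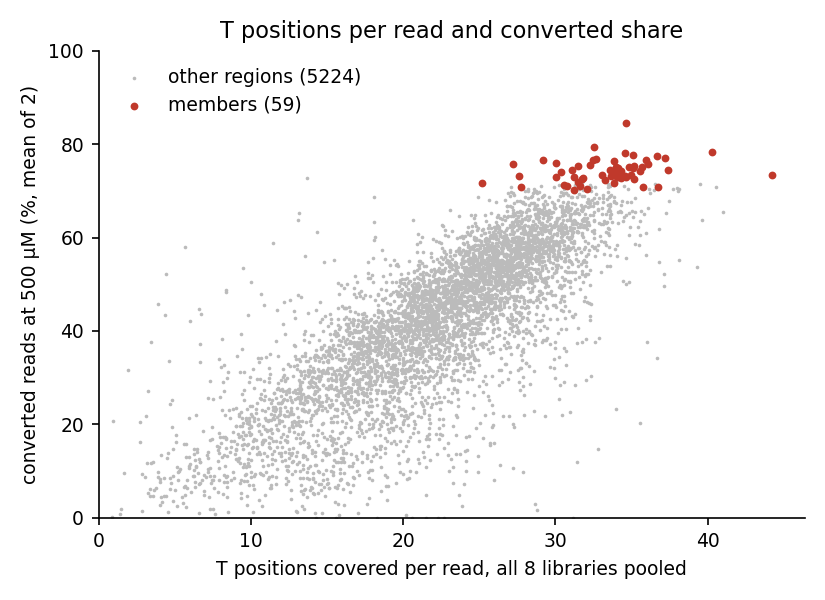
T positions covered per read over all 8 libraries (x axis, count) against the mean share of converted reads at 500 µM (y axis, percent) for the 59 members (red) and the other 5224 regions (grey). Members sit at the upper right, all at 25 or more T positions per read, and the grey cloud climbs with the x axis.

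Regions of like T coverage were compared next, as a description, since the members were selected on the share. Of the 476 regions that covered 30 to 35 T positions per read, 39 were members. The other regions in that band had median shares of 50.5%, 61.3% and 61.7% at 250 µM, 500 µM and 1 mM, against 63.0%, 73.5% and 74.4% in the members. Their conversion rates were 4.86%, 6.40% and 7.43%, against 6.15%, 7.99% and 9.09%. None of the 1784 regions under 20 T positions per read and none of the 1565 with 20 to 25 was a member. Among the members, the 5 with 25 to 30 T positions per read had the highest median rates, 7.27%, 9.27% and 10.4%. The rule favours this order, because with fewer T positions a region needs a higher rate to reach the same share. The other regions of that band had 4.67%, 6.21% and 7.34%, which is not above the values at 30 to 35. Those at 35 or more had 4.33%, 6.24% and 7.23%.

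Among the members themselves, the highest labelled shares over the 250 µM and 1 mM libraries, which did not choose them, belonged to 6 regions, 5 of them among the 12 deepest. The region chr11:83555208-83555509, 302 bp on the plus strand, had shares of 77.3% and 78.6% at 250 µM, 84.5% and 84.4% at 500 µM, and 77.9% and 89.2% at 1 mM. It was the only member above 80% in both 500 µM libraries. Its 1 mM library 1 fell between the 250 µM libraries, and the model gave a log2 odds difference of 0.60 ± 0.20 (SE, adjusted p = 0.0234), which was -0.01 without 1 mM library 2 and was no longer called by DESeq2, without both 500 µM libraries, or when any 1 of the 250 µM or 500 µM libraries was left out. Its conversion rate was 8.08% and 8.26% at 250 µM and 10.8% and 11.6% at 1 mM, with no overlap (log2 0.50 ± 0.07, adjusted p = 0.00027).

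Next came chr15:101172134-101172676, with shares of 68.5% and 70.5% at 250 µM and 78.1% and 81.3% at 1 mM. There the groups did not overlap, and the difference was 0.79 ± 0.19 (adjusted p = 0.0011). The deepest member, chr1:164759213-164759353, gave 68.8% and 68.2% at 250 µM, 74.5% and 76.1% at 500 µM, and 76.3% and 80.2% at 1 mM. Its libraries ordered by dose with no overlap between 250 µM and 1 mM, and the difference was 0.73 ± 0.16 (adjusted p = 0.000511). Both calls were lost without 250 µM library 1, with differences of 0.72 and 0.75.

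In the group of high members, chr15:61861758-61862223 showed the widest gap between the 1 mM libraries, with 62.6% in library 1 and 83.9% in library 2. At 250 µM it had 73.1% and 75.6%, so the 1 mM libraries lay on both sides of the 250 µM pair. The share difference was -0.01 ± 0.23 (adjusted p = 1), and it was 0.84 without 1 mM library 1 and -0.79 without library 2. A read on this region covered 22.7 T positions in 1 mM library 1 and 34.1 in library 2. Its conversion rate of 7.51% and 8.01% at 250 µM and 10.1% and 10.7% at 1 mM did not overlap (log2 0.46 ± 0.09, adjusted p = 0.00164). Also high were chr12:69420096-69420557, with means of 69.0% at 250 µM and 79.4% at 1 mM, and chrX:11902979-11903864, with 72.3% and 73.7%. The share difference of the chromosome 12 region was 0.82 ± 0.23 (adjusted p = 0.00695), and it was 0.40 without 1 mM library 2. Its call was lost in 2 of the alternative settings run. The share difference of the chromosome X region was 0.09 ± 0.30 (adjusted p = 0.923).

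The members of lowest share over these 4 libraries included the largest step. At chr15:51825636-51827451 the 250 µM shares were 44.6% and 50.1%, those at 500 µM 72.9% and 73.0%, and those at 1 mM 65.8% and 79.9%. That is the lowest 250 µM mean among the members, 47.4% ± 3.9 (SD, n = 2), and the largest ratio of 1 mM to 250 µM means, 1.54. The model gave 1.54 ± 0.32 (adjusted p = 0.000209) for the share and 1.02 ± 0.13 (adjusted p = 0.000143) for the conversion rate. A further pair of low members also passed. For chr2:50169893-50170219, with 49.3% and 53.6% at 250 µM and 70.4% and 74.4% at 1 mM, the difference was 1.30 ± 0.36 (adjusted p = 0.00573). For chr6:120869815-120871241, with 55.8% and 48.4% against 63.7% and 78.7%, it was 1.20 ± 0.39 (adjusted p = 0.0245). The last call was lost without 1 mM library 2, where the difference was 0.69, and without either 250 µM library. Leaving out 250 µM library 1 also ended the calls of the other 2, and that on chromosome 2 was lost without 1 mM library 2 as well. These 3 members had only 372 to 469 reads over both 500 µM libraries.

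The 3 remaining members of lowest share did not pass for the share. They were chr15:98543015-98543674, with means of 56.4% at 250 µM and 67.0% at 1 mM (adjusted p = 0.251), chr7:141435320-141438103, with 57.8% and 66.1% (adjusted p = 0.355), and chr9:57034663-57035650, with 53.2% and 72.2% (adjusted p = 0.0573). All 3 passed for the conversion rate, with adjusted p of 0.00587, 0.00911 and 0.018. In the same order, these calls were lost in 1, 2 and 3 of the alternative settings run. Leaving out 1 library moved their log2 differences in the rate between 0.63 and 0.96, 0.51 and 0.63, and 0.53 and 0.81.

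Of the 12 deepest members, 8 passed for the share and 12 for the conversion rate. Among the 5283 regions with the same read minimum, 35.7% and 79.0% were called higher. Most of those regions have fewer reads than these 12 members. Besides those above, the share was higher at 1 mM for chr10:96454506-96458671 (1.10 ± 0.20, adjusted p = 1.44e-05), chr6:86501474-86501826 (0.85 ± 0.22), chr14:30734390-30734591 (0.93 ± 0.22) and chr11:70868662-70868920 (0.93 ± 0.23). The first of these was called in every setting run. The calls at chr6:86501474-86501826 and chr14:30734390-30734591 were lost without 1 mM library 2, where both differences were 0.42, and without 250 µM library 1. That at chr11:70868662-70868920 was lost without either 250 µM library. It did not pass for chr2:56996842-56998424, chr6:129244288-129245223 and chr3:135290418-135291168, whose values in 1 mM library 1 were 66.1%, 61.9% and 70.1%, against 62.6% to 66.1% at 250 µM.

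Reads that map to several places touched few members. Multimapped reads exceeded 5% for 5 of 59 members, against 17.3% of the other regions. They exceeded 50% for 3, namely chr10:96454506-96458671 with 61.9%, chrX:135633691-135634359 with 84.2% and chr6:148822555-148824528 with 97.1%. The assignment of reads for these 3 is uncertain.

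Total reads, converted or not, give the relative level of mapped reads on each region with and without 4sU. Whether conversions changed how many reads of a transcript were mapped was not tested. In bulk libraries, fewer cells with a transcript and less of it per cell cannot be told apart. With all 8 libraries in 1 fit (edgeR's quasi-likelihood test, 19159 regions tested), 2 of 59 members were higher at 1 mM than in the controls and 1 was lower. The background was 1.42% called higher and 0.663% called lower. The median log2 fold change was 0.12 in the members and -0.04 over all regions tested. Its sign depended on single libraries: it was -0.16 without control library 2, -0.17 without 1 mM library 2 and 0.52 without control library 1. Both 1 mM libraries lay above both controls in CPM, reads scaled to the library's total outside the mitochondrial chromosome, for 15 members (25.4%, against 21.5% of the 5283 regions) and below them for 12 (20.3%, against 25%).

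The controls differed between themselves, which limits this comparison. Control library 1 had a higher CPM than control library 2 in 45 of 59 members, with a median ratio of 1.28, and in 59.02% of the others, with 1.11. For the deepest member the values were 9629 and 3093 CPM in the controls and 4476 and 5659 at 1 mM, so the controls enclosed the labelled libraries (log2 -0.28 ± 0.43, adjusted p = 0.735). Without control library 1 its log2 fold change was 0.95.

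**Figure D5:**
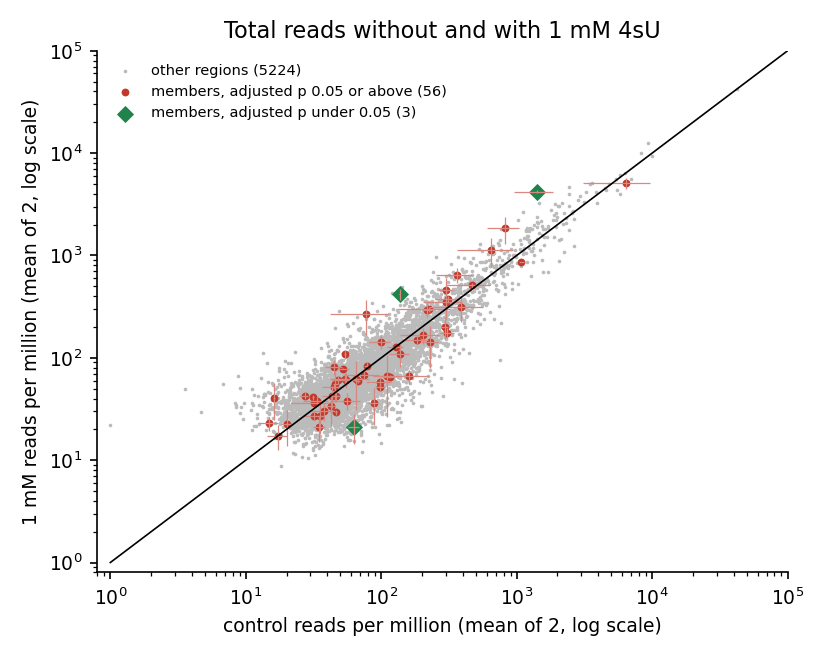
Mean CPM in the 2 control libraries (x axis, log scale) against the mean in the 2 libraries at 1 mM (y axis, log scale), for the 59 members (red, and green diamonds for the 3 with an adjusted p under 0.05) and the other 5224 regions (grey, values under 1 drawn at 1). Lines through the points span the 2 libraries of each dose and the black line marks equality. Members lie on both sides of it.

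The region chr15:61861758-61862223 (transcript ENSMUST00000159327.2) had 137 and 136 CPM in the controls, 371 and 380 at 250 µM, 373 and 489 at 500 µM, and 465 and 366 at 1 mM. All 6 labelled libraries exceeded both controls, which agreed closely. The log2 fold change at 1 mM was 1.72 ± 0.30 (adjusted p = 0.0122), and at 250 µM 1.47, which did not pass (adjusted p = 0.138). The call at 1 mM was lost without 1 mM library 1 (adjusted p = 0.0953) and in the fit of controls and 1 mM alone (0.13).

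For chr2:56996842-56998424 (ENSMUST00000183542.8) the controls gave 1858 and 962 CPM. The labelled libraries gave 2311 and 2411 at 250 µM, 3117 and 3273 at 500 µM, and 4333 and 4037 at 1 mM. Each dose lay above the one before with no overlap, and the log2 fold change at 1 mM was 1.64 ± 0.35 (adjusted p = 0.0311). Leaving out 1 mM library 1 raised the adjusted p to 0.179, and leaving out any 1 of the 250 µM or 500 µM libraries raised it to between 0.0581 and 0.0648.

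The member that was lower, chr10:117586526-117586872 (ENSMUST00000218576.2), had 56.7 and 68.2 CPM in the controls, 67.0 and 64.3 at 250 µM, and 51.8 and 44.6 at 500 µM. At 1 mM it had 14.5 and 28.0 CPM, from 88 and 121 reads. Only the 500 µM and 1 mM libraries lay below the controls, and the log2 fold change at 1 mM was -1.45 ± 0.34 (adjusted p = 0.0455). Without 1 mM library 1 it was -1.05 (adjusted p = 0.321), and without any 1 of the 250 µM or 500 µM libraries the adjusted p was 0.0817 to 0.0842.

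The largest fold change of all members did not pass. At chr3:37697701-37698747 the controls had 112 and 41.7 CPM and the 1 mM libraries 366 and 168 (log2 1.86 ± 0.49, adjusted p = 0.0583). At chr15:98543015-98543674 the controls had 16.4 and 15.9 and the 1 mM libraries 56.3 and 24.5 (1.44 ± 0.40, adjusted p = 0.0651). Among the decreases, chr12:17479236-17480096 had 224 and 97.96 against 55.5 and 76.3 (-1.22 ± 0.40, adjusted p = 0.101). For chr8:118518384-118518924 and chr13:38398581-38400489 the values were -1.21 ± 0.37 and -0.83 ± 0.31, and neither passed.

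At 250 µM no member was called against the controls (edgeR, 0 higher and 0 lower), where 0.0626% of all regions tested were called higher. At an unadjusted p under 0.05, 8 members were higher (13.6%, against 4.25% of all regions tested) and 1 was lower (1.69%, against 2.09%), and DESeq2 called 1 member and 41 regions in all. Most of the regions tested did not reach the members' read minimum, which limits the comparison of these percentages. Both 250 µM libraries lay above both controls in 29 of 59 members (49.2%), against 19.3% of the 5283 regions, and below them in 8 (13.6%), against 18.4%. The median log2 fold change of the members was 0.27, with -0.04 over all regions tested. It was 0.00 without control library 2 and 0.70 without control library 1, so its size depended on which control was used. This comparison shares the controls with that at 1 mM.

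Between 1 mM and 250 µM, which share no control, total reads of 0 members were called in either direction by edgeR, as were 0 of all 19159 regions. At an unadjusted p under 0.05, 2 members were higher and 3 lower (1217 and 1133 of all regions), and DESeq2 called 0 members higher and 1 lower (42 and 37 of all regions). The median log2 fold change was -0.10 in the members and 0.00 over all regions tested. Since edgeR called no region at all, this test cannot show that total reads of the members were alike at these doses. Log2 fold changes of single members ran from -1.54 to 1.14.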

How the data were processed

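The 8 naive T bulk tables were made by the authors with slamdunk 0.4.3 on GENCODE mouse release 33 3' UTRs, per the file headers. They give read counts, converted read counts, conversion counts and T coverage per row; a conversion rate as a fraction and reads as CPM are also deposited but were recomputed here. Mapping settings, and how many conversions a read needs to count as converted, are not given in the sources used here. UMI counts per gene, deposited by the authors, served for the marker check.

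Members and gene lists were chosen with earlier results of these data known. Overlapping rows on 1 strand were joined, the row with most reads standing for each group, and chrM was left out. CPM here uses all reads outside chrM as the total. edgeR 4.0.16 (R 4.3.3) quasi-likelihood tests after filterByExpr, with TMM scaling for total reads, were adjusted by Benjamini-Hochberg over all regions tested at 0.05. Shares used converted and other reads, and rates used converted and unconverted T positions, each with a term per library and a kind by dose term. DESeq2 1.42.0 was an alternative. The tests were tested on simulated data. An exact permutation test of 2 against 2 libraries cannot go below p = 0.333 and was not used. Named members were the 12 deepest, the 6 highest and 6 lowest by mean share over the 250 µM and 1 mM libraries, the 4 largest and 4 smallest total read changes at 1 mM, and 3 on either side of the threshold; members with over 50% multimapped reads and the closest members were named after their values were seen. Same-numbered libraries did not deviate together (correlations from -0.149 to 0.0319 for total reads), so numbers were not used as pairs. Members in single cells and by gene list were not analysed here, because the tables used do not pair transcripts with genes.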

Additional observations from a re-analysis of the deposited data

Results flagged for a closer look

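Mitochondrial regions, which no comparison above uses, also carried converted reads. Their converted share was 0.00747% and 0.0124% in the control libraries. It was 9.22% and 11.4% at 250 µM, 12.3% and 12.2% at 500 µM, and 8.63% and 11.9% at 1 mM, over 15 regions and 120105 to 492815 reads per labelled library. These values are well under the member medians, and, as in the members, 1 mM library 1 was the lower of its pair. The cause was not tested.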

How the results depend on the processing

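The number of members followed the threshold: it was 487 at 60%, 191 at 65%, 7 at 75% and 1 at 80%. The same rule on the 250 µM libraries gave 3 members, all among the 59, and on 1 500 µM library alone 103 to 146. Other read minimums (73 at 50 reads, 43 at 200), the longest row (61) and the 1 mM libraries (64, of which 29 were among the 59) stayed within 1.5 times. Pooling reads over members in place of the median gave shares of 66.4% at 250 µM and 74.9% at 500 µM.

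Members called for the share numbered 4 to 40 when 1 library was left out, and for the conversion rate 38 to 50. With a replicate block the share calls were 29 and the rate calls 51; for total reads at 1 mM the block gave 3 higher and 0 lower and lost the decrease on chromosome 10, and it changed no call at 250 µM. Leaving out 1 library moved the share difference between -0.0104 and 1.23 for chr11:83555208-83555509 and between -0.79 and 0.84 for chr15:61861758-61862223. It moved the total read change of chr1:164759213-164759353 between -0.95 and 0.95.

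Members called for total reads at 1 mM against control numbered 8 with DESeq2, 8 with no filter, 0 with only those groups in the fit, and 0 to 16 when 1 library was left out. At 250 µM against control they numbered 1 with DESeq2 and 0 to 5 when 1 library was left out; at 1 mM against 250 µM, 1 with DESeq2 and 0 to 3. All regions called at 1 mM against control numbered 272 higher and 127 lower, but 594 and 456 with DESeq2. With no filter they numbered 627 and 667, of 55962 tested. Leaving out control library 1 gave the most member calls and also the most calls over all regions. The cause of these shifts was not tested; leaving out a library also leaves fewer degrees of freedom.

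Depth limits shares of shallow members, with 76 reads at the least in a labelled library, and 2 libraries per dose limit every test.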
